A study of Mus musculus with 12 samples.

Results

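Messenger RNA levels of 9 liver enzymes that take apart the amino acids tryptophan and tyrosine were followed across 12 microarrays of mouse liver. The enzymes were Tdo2, Afmid, Kmo, Kynu and Haao for tryptophan and Tat, Hpd, Hgd and Fah for tyrosine. A probe set, the group of short probes on the array that reads 1 transcript, was included when its annotation named exactly 1 of these genes. This gave 16 probe sets for the 9 genes, of 45101 probe sets and 18194 singly named genes on the array, and every gene had at least 1. Tdo2 had 3 probe sets, Afmid 4, Kynu and Hgd 2 each, and the other genes 1 each. All values below are log2 intensities, on which a difference of 1 is a doubling, and they are compared only within a probe set.

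The study profiled male mice of the 129J background that lacked Iqgap2 in the whole body (KO) and wild-type (WT) mice, at 6 and 24 months of age. Each of the 4 groups had 3 arrays, which the titles call biological replicates. The arrays labelled KO 24 months tumor were made from hepatocellular tumors, and those labelled KO 6 months, WT 24 months and WT 6 months from liver described as normal. The KO mice lack the gene in the whole animal and not only in hepatocytes, all 4 groups shared the 129J background and a regular diet, and the labels name no drug or other treatment.

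Liver is the main site where both amino acids are oxidised. Tryptophan is opened by tryptophan 2,3-dioxygenase (Tdo2), the formyl group is removed by kynurenine formamidase (Afmid), kynurenine is hydroxylated by kynurenine 3-monooxygenase (Kmo) and cleaved by kynureninase (Kynu), and the product is opened by 3-hydroxyanthranilate dioxygenase (Haao) on the way to NAD. Tyrosine loses its amino group through tyrosine aminotransferase (Tat), after which 4-hydroxyphenylpyruvate dioxygenase (Hpd), homogentisate dioxygenase (Hgd) and fumarylacetoacetate hydrolase (Fah) carry the ring to fumarate and acetoacetate. Tdo2 and Tat are classic glucocorticoid-responsive hepatocyte genes, and loss of human HGD or FAH causes alkaptonuria or tyrosinemia.

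Before any result, Iqgap2 itself was read in every array, because it is the deleted gene. On its brighter probe set it stood at 12.15, 12.05 and 12.15 in the arrays labelled KO 24 months tumor and at 8.12, 8.68 and 8.07 in those labelled KO 6 months. The arrays labelled WT 24 months gave 12.28, 12.30 and 11.92, and those labelled WT 6 months gave 8.38, 8.24 and 8.33. The deleted gene was thus high in arrays labelled as knockout tumor and low in arrays labelled as young wild type, which goes against both labels. Afp, a gene of fetal liver and liver tumors, read 6.11 to 6.27 in the arrays labelled KO 24 months tumor against 12.04 to 13.27 in those labelled WT 6 months. Not every Afp probe set separated the arrays: on some, those labelled WT 6 months did not all read above all other arrays. Groups are therefore given below by label only, and a direction between genotypes or ages holds for the labels as deposited. Exchanging these 2 labels would leave the same 4 pairs of arrays to be compared, under other names and each with its sign turned. It would not alter any array's value.

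Regulatory sequence upstream of 8 of the 9 genes was taken from RefSeq (build GRCm38.p6). The windows of 4 genes that differed between groups are shown, so that the sequence next to the start of those genes can be read beside their values. Each line gives the 250 bases before the annotated start, 5′ to 3′ on the strand of the gene, and capitals mark matches to the motifs searched.

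Tdo2: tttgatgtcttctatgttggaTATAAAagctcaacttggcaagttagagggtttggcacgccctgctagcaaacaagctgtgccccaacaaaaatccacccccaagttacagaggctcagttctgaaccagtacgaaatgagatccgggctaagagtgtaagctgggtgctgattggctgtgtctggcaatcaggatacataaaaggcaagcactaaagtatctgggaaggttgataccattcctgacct

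Kmo: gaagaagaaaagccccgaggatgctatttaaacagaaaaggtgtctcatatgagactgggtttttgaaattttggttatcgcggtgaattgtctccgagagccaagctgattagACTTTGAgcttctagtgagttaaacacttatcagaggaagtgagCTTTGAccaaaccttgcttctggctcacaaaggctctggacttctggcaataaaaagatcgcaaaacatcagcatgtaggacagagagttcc

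Haao: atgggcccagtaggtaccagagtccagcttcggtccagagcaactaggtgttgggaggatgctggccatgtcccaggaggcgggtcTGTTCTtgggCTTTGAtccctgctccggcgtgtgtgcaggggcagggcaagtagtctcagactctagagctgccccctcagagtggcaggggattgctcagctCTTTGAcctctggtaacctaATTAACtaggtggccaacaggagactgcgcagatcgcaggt

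Tat: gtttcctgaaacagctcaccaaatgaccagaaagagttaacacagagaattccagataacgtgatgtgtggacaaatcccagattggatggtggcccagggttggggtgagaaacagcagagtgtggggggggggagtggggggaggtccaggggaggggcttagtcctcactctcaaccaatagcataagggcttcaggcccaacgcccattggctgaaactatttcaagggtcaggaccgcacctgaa

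The windows lay at chr3:81975729-81975978 (Tdo2, minus strand), chr1:175631943-175632192 (Kmo, plus strand), chr17:83846791-83847040 (Haao, minus strand) and chr8:109990186-109990435 (Tat, plus strand). The Haao and Tat windows fall inside the annotated gene spans, chr17:83831348-83848981 and chr8:109986078-109999804, and so belong to a transcript start within the gene. The motifs searched on both strands were the core promoter element TATAAA, the TCF/LEF core CTTTGA, the HNF1 half-site GTTAAT, the HNF4 core CAAAGT, and the glucocorticoid receptor half-site TGTTCT. Matches of CTTTGA stood at -135 and -92 in Kmo and at -154 and -61 in Haao, counting from the start, and it was present in 13.8% of the 32851 promoter windows of the same length. The CAAAGT match of Kmo, on the opposite strand at -136, shares bases with the first CTTTGA, and CAAAGT was present in 12.6% of all windows. Haao also held TGTTCT at -164 and GTTAAT on the opposite strand at -41, found in 16.1% and 6.43% of all windows. TATAAA stood at -229 in Tdo2 and was present in 12.4% of windows. None of the 5 motifs was found in the Tat window. These are matches of letters only.

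In the arrays labelled KO 6 months, 5 of the 9 genes read higher than in those labelled WT 6 months and none lower, taking the brightest probe set of each gene. They were Kynu, Kmo, Tat, Tdo2 and Haao, with folds between 1.59 and 7.45. Over probe sets, 8 of 16 were called higher at a limma adjusted p of 0.05 or less, the threshold used throughout, against a background of 6.1% of all probe sets called higher. None of the 16 was called lower, where the background was 6.02%. The tryptophan enzymes supplied 4 of the 5 genes, and Tat was the only one of the 4 tyrosine genes. The median difference of the 16 probe sets was 0.80, beside 0.04 over all probe sets.

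The arrays labelled WT 6 months stood below the others in many of these probe sets. In 7 of the 16 member probe sets all 3 of these arrays read below all 9 other arrays, against 5.89% of all probe sets, and in none did they read above, against 5.87% of all probe sets. The 7 were the 3 of Tdo2, the 2 of Kynu, and those of Kmo and Fah, which are 6 of the 11 tryptophan and 1 of the 5 tyrosine probe sets. In whole liver RNA, fewer cells of a type and less RNA per cell cannot be told apart. General hepatocyte markers were called in 0 of 5 genes in each comparison over WT 6 months (median differences 0.03 for KO 6 months and 0.10 for WT 24 months). Over their 14 probe sets, 0 were called for KO 6 months and 1, higher, for WT 24 months. By separation, dimmer probe sets of Ttr and Hnf4a read below all 9 other arrays in WT 6 months, and a dimmer one of Apoa1 above. The summed linear intensity of the 5 hepatocyte marker genes lay between 122817 and 137892 in all 12 arrays. Alb, Apoa1 and Ttr, at means of 15.11, 15.06 and 14.99, were among the highest on the array, which limits what this sum can show.

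**Figure D1:**
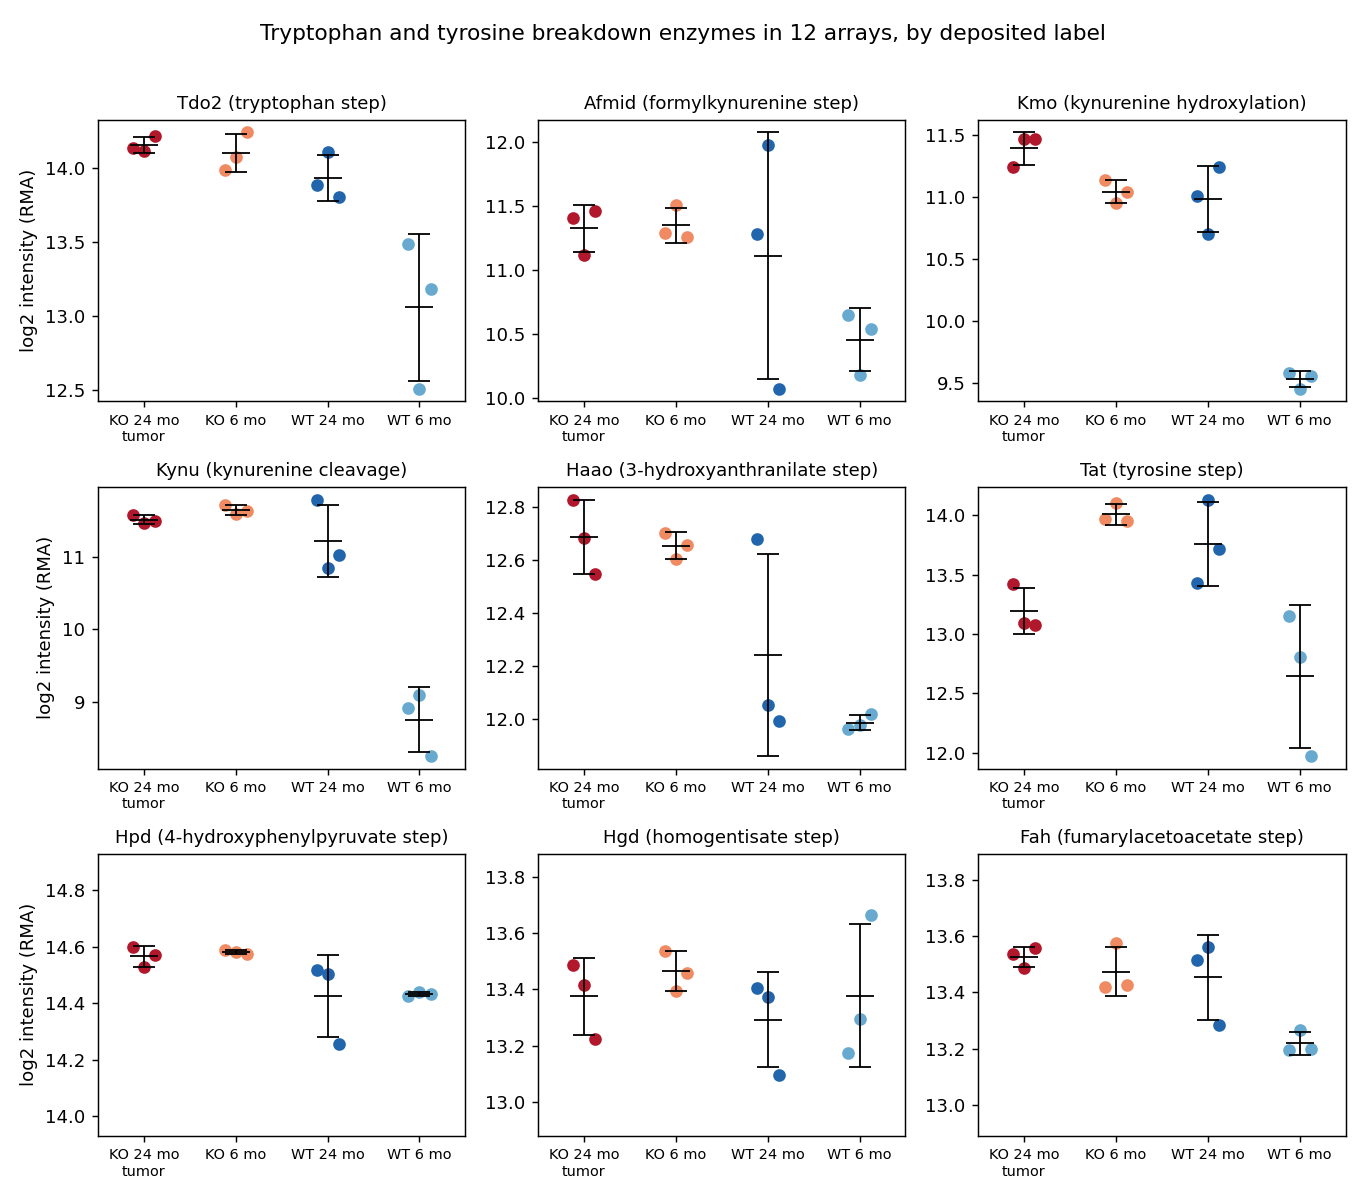
Log2 intensity of the brightest probe set of each enzyme (vertical axes, scales differ) in the 12 arrays by deposited label (horizontal axes). Points are arrays, the long bar is the mean and the error bars are the SD of 3 arrays; Kmo and Kynu are lowest in all 3 arrays labelled WT 6 months (Kynu 8.25 to 9.10), while Hpd and Hgd vary little.

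Kynu, the cleaving enzyme of the route, had the widest gap. Its brighter probe set read 11.58, 11.46 and 11.50 in the arrays labelled KO 24 months tumor, 11.72, 11.59 and 11.63 in KO 6 months, 11.79, 10.85 and 11.02 in WT 24 months, and 8.91, 9.10 and 8.25 in WT 6 months. The arrays labelled WT 6 months were all lower than the other 9 by more than 1 log2 unit. KO 6 months over WT 6 months gave a log2 difference of 2.90 (SE 0.24, 7.45-fold, limma adjusted p = 2.08e-05). WT 24 months over WT 6 months gave 2.47 (SE 0.24, 5.53-fold, limma adjusted p = 7.83e-05). Both calls held under all 20 alternatives run for each of them. The dimmer probe set of Kynu moved in the same direction at a smaller size, reading 4.59 to 5.14 in KO 24 months tumor, 4.59 to 5.13 in KO 6 months, 4.36 to 4.78 in WT 24 months and 3.90 to 4.10 in WT 6 months. Its difference was called for KO 6 months over WT 6 months (0.83, SE 0.17, limma adjusted p = 0.00974) but not for WT 24 months over WT 6 months (0.53, adjusted p = 0.0901). Kynu was the only member past the 3-fold limit of the study's methods in these 2 comparisons, where 0.758% and 0.761% of all probe sets were higher by that rule.

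Kmo, which makes 3-hydroxykynurenine, had the smallest SE among the 5 genes called in KO 6 months over WT 6 months, each read on its brightest probe set. It read 11.24, 11.47 and 11.47 in KO 24 months tumor, 11.14, 10.95 and 11.04 in KO 6 months, 11.01, 10.70 and 11.24 in WT 24 months, and 9.58, 9.46 and 9.56 in WT 6 months. The arrays labelled WT 6 months lay more than 1 log2 unit below the other 9. KO 6 months over WT 6 months differed by 1.51 (SE 0.13, 2.85-fold, limma adjusted p = 2.67e-05) and WT 24 months over WT 6 months by 1.45 (SE 0.13, 2.73-fold, limma adjusted p = 4.18e-05). These 2 calls also held under all 20 alternatives each. The 3 arrays labelled KO 24 months tumor lay at or above every other array of Kmo, but neither KO 24 months tumor over WT 24 months (0.41, limma adjusted p = 0.197) nor over KO 6 months (0.35, limma adjusted p = 0.735) was called.

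Tdo2, the entry enzyme of the route, was read by 3 probe sets that ordered the group means alike: KO 24 months tumor, KO 6 months, WT 24 months and WT 6 months from high to low. On the brightest, the arrays labelled KO 24 months tumor read 14.13, 14.11 and 14.22, KO 6 months 13.99, 14.07 and 14.24, WT 24 months 13.88, 14.11 and 13.81, and WT 6 months 13.48, 12.51 and 13.18. Only the arrays labelled WT 6 months stood clear of their neighbours there, with a spread of 0.50 (SD) that was wider than in the other groups. The difference KO 6 months over WT 6 months was 1.04 (SE 0.20, limma adjusted p = 0.00570) on this probe set and 1.49 and 1.52 on the others (SE 0.13 and 0.15, limma adjusted p = 2.25e-05 and 9.07e-05). For WT 24 months over WT 6 months the 3 probe sets gave 0.88, 0.98 and 1.14, all called by limma. The first of these had an adjusted p of 0.0174, which became 0.0600 without WT 24 months replicate 2 (difference 0.79), 0.136 with only the 2 groups fitted and 0.0760 with housekeeping centring (difference 0.73).

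On 2 of the 3 Tdo2 probe sets the arrays labelled KO 6 months and WT 24 months also did not overlap. This pair of groups was not tested, and the share of all probe sets without overlap in it was not counted. One of these 2 probe sets read 12.85, 12.63 and 12.98 in KO 24 months tumor and 12.17, 12.18 and 11.90 in WT 24 months. It was the only member called in KO 24 months tumor over WT 24 months. Its difference was 0.74 (SE 0.13, 1.67-fold, limma adjusted p = 0.0436). In that comparison 0.122% of all probe sets were called higher and 0.115% lower, and 0.0155% were higher by at least 3-fold, where no member was. The call held in 4 of 18 alternatives, whose adjusted p ran from 0.0245 to 0.197. Leaving out any 1 array other than WT 24 months replicate 1 or WT 6 months replicate 2 ended it, with adjusted p from 0.0513 to 0.151 and differences from 0.65 to 0.83. The other 2 probe sets of the gene gave 0.22 and 0.53 in the same comparison and were not called.

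**Figure D2:**
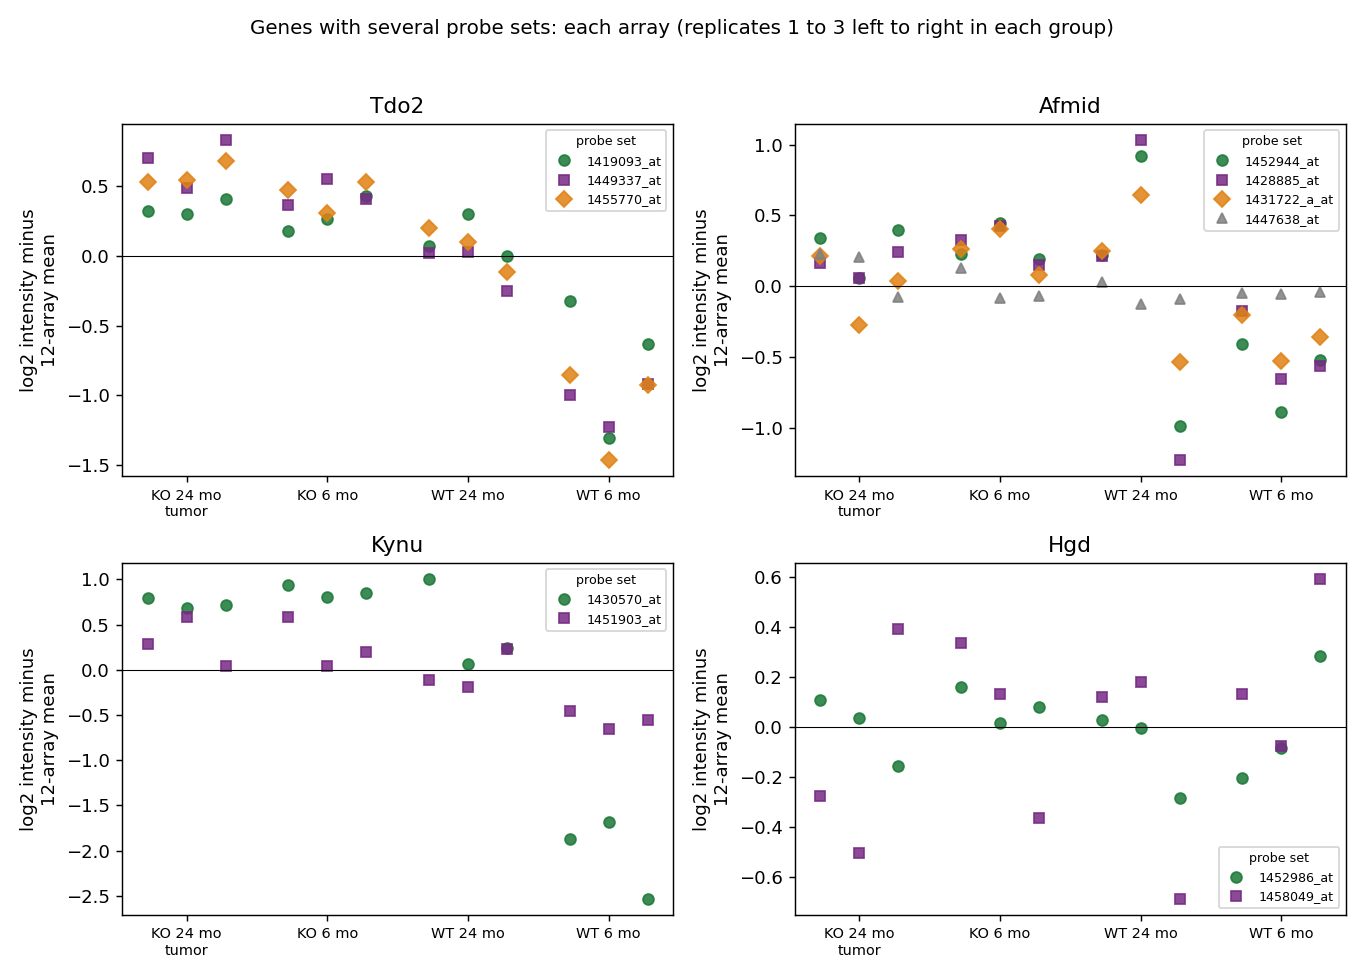
Genes with several probe sets: log2 intensity minus the 12-array mean of the probe set (vertical axes) for each array by deposited label (horizontal axes). Each symbol is 1 probe set; the 3 Tdo2 probe sets fall together in the arrays labelled WT 6 months, 3 Afmid probe sets split the arrays labelled WT 24 months alike, and the dim probe set of Afmid, near 3.8, stays flat.

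Afmid, the second step, was read by 4 probe sets and was called in no comparison. Its brightest probe set gave 11.41, 11.12 and 11.46 in KO 24 months tumor, 11.29, 11.51 and 11.25 in KO 6 months, 11.28, 11.98 and 10.07 in WT 24 months, and 10.65, 10.18 and 10.54 in WT 6 months. The arrays labelled WT 24 months held both the highest and the lowest value of all 12, with an SD of 0.96. The lowest of these, replicate 3, was also the lowest of the 12 on the next 2 probe sets, at 8.04 and 6.77. KO 6 months over WT 6 months differed by 0.89 (SE 0.36, limma adjusted p = 0.134), and these groups did not overlap. With only these 2 groups fitted, so that the spread of WT 24 months did not enter, the difference was called (adjusted p = 0.00820), as it was on the next 2 probe sets (adjusted p = 0.0160 and 0.0217). Without WT 24 months replicate 3, Afmid was called in KO 6 months over WT 6 months (0.89, adjusted p = 0.00838) and in WT 24 months over WT 6 months (1.17, adjusted p = 0.00469), and without WT 24 months replicate 2 it was called in KO 6 months over WT 6 months (0.89, adjusted p = 0.0445). The fourth probe set was dim, with group means between 3.75 and 3.93. Afmid lies at chr11:117825503-117839908 and overlaps the thymidine kinase gene Tk1 (chr11:117815519-117826087) by its first bases.

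Haao, the last tryptophan enzyme measured, read 12.83, 12.68 and 12.55 in KO 24 months tumor, 12.70, 12.60 and 12.66 in KO 6 months, 12.68, 12.05 and 11.99 in WT 24 months, and 11.96, 11.98 and 12.02 in WT 6 months. One array labelled WT 24 months sat with the KO arrays and the remaining 2 with WT 6 months. KO 6 months over WT 6 months was 0.67 (SE 0.16, 1.59-fold, limma adjusted p = 0.0179). The call held in 16 of 20 alternatives and was lost without KO 6 months replicate 1 (0.64, adjusted p = 0.0603), without KO 6 months replicate 3 (0.67, adjusted p = 0.0569) and without WT 6 months replicate 2 (0.66, adjusted p = 0.0549), and with the arrays centred on housekeeping genes (0.57, adjusted p = 0.158). In KO 24 months tumor over WT 24 months the difference of 0.45 was not called (limma adjusted p = 0.228), and without WT 24 months replicate 1 it was 0.66 with an adjusted p of 0.0143.

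Tat, which starts tyrosine breakdown, had its highest mean in KO 6 months, followed by WT 24 months, KO 24 months tumor and WT 6 months. It read 13.42, 13.09 and 13.07 in KO 24 months tumor, 13.97, 14.11 and 13.95 in KO 6 months, 13.43, 14.13 and 13.72 in WT 24 months, and 13.15, 12.81 and 11.98 in WT 6 months. The arrays labelled KO 24 months tumor overlapped with those labelled WT 6 months and lay below all arrays labelled KO 6 months and WT 24 months. KO 6 months over WT 6 months was 1.36 (SE 0.26, 2.57-fold, limma adjusted p = 0.00571), a call that held in all 20 alternatives. WT 24 months over WT 6 months was 1.12 (SE 0.26, 2.17-fold, limma adjusted p = 0.0200), and it was 0.93 with an adjusted p of 0.0703 without WT 24 months replicate 2. With only the 2 groups fitted its adjusted p was 0.145. KO 24 months tumor over KO 6 months was -0.81 (SE 0.26, unadjusted p = 0.00919), which with a limma adjusted p of 0.653 over all probe sets was not called.

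The 3 enzymes after Tat were called in no comparison. Hpd read 14.53 to 14.60 in KO 24 months tumor, 14.57 to 14.59 in KO 6 months, 14.26 to 14.52 in WT 24 months and 14.43 to 14.44 in WT 6 months. Its largest difference, 0.15 in KO 6 months over WT 6 months, had a 95% interval from -0.05 to 0.34. These intensities were among the highest on the array. Hgd had 2 probe sets, with differences from -0.34 to 0.09 over the 4 comparisons, and on its brighter one the 4 groups overlapped. Its intervals for KO 6 months over WT 6 months ran from -0.22 to 0.39 on the brighter and from -0.83 to 0.46 on the dimmer probe set.

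Fah, whose product is the end of the route, read 13.54, 13.49 and 13.56 in KO 24 months tumor, 13.42, 13.57 and 13.43 in KO 6 months, 13.52, 13.56 and 13.28 in WT 24 months, and 13.19, 13.27 and 13.20 in WT 6 months. Although the arrays labelled WT 6 months were again below all others, the gap was small. The differences of 0.25 and 0.23 for KO 6 months and WT 24 months over WT 6 months were not called (limma adjusted p = 0.113 and 0.183).

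**Figure D3:**
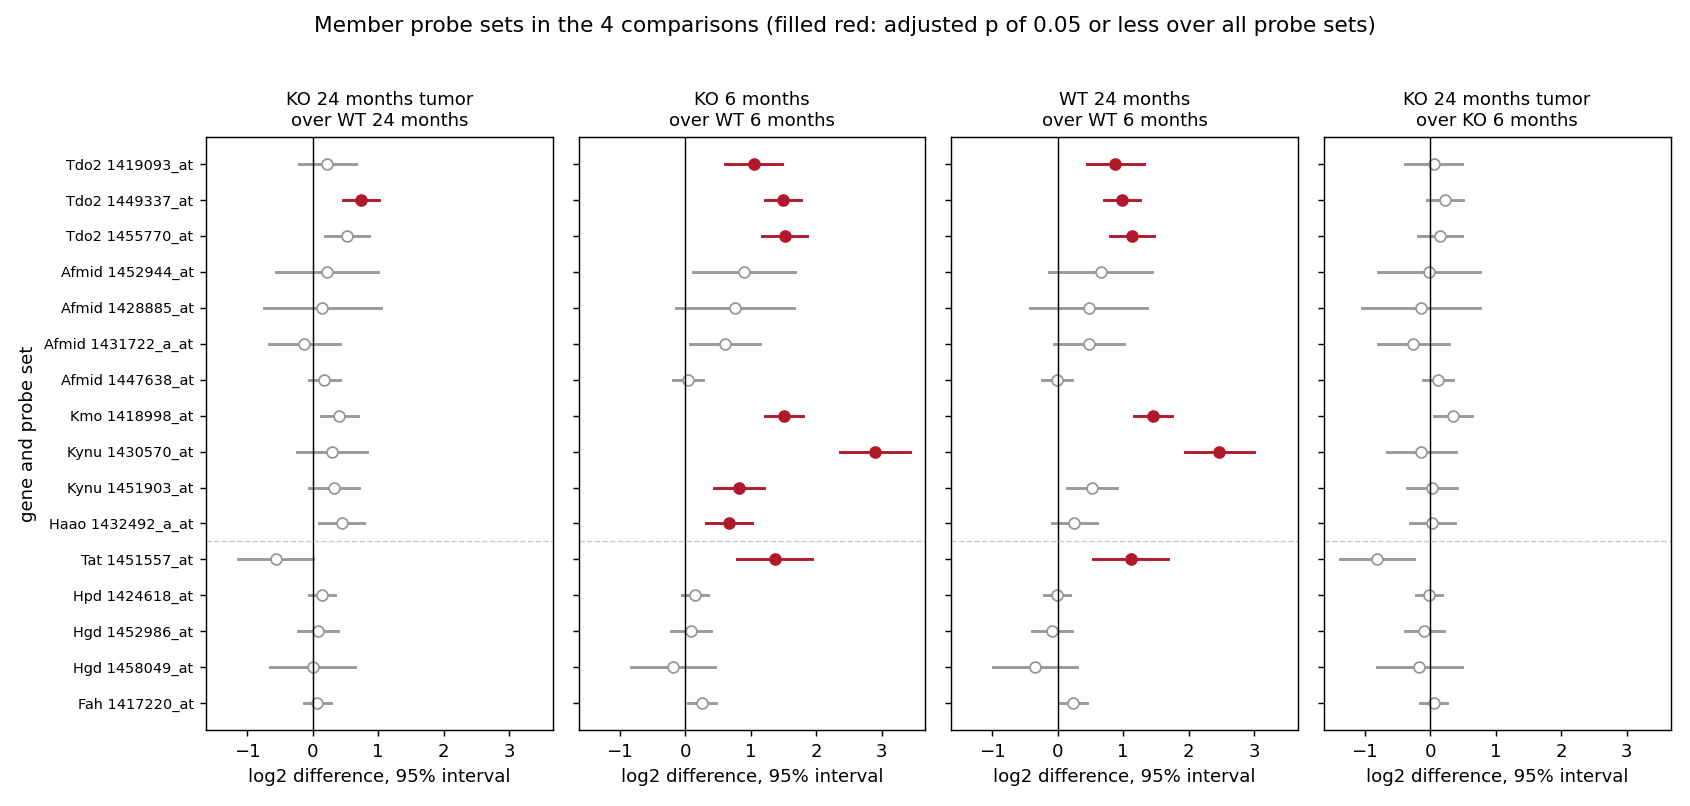
Log2 difference with its 95% interval (horizontal axes, first group minus second) for the 16 probe sets (vertical axis) in the 4 comparisons; filled red points passed a limma adjusted p of 0.05 over all probe sets. Calls gather in the 2 comparisons with WT 6 months (8 and 6 probe sets), with 1 and 0 in the others.

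Compared by age label in the wild type, 4 of the 9 genes read higher in WT 24 months than in WT 6 months: Kynu, Kmo, Tat and Tdo2. In probe sets this was 6 of 16, against 3.79% of all probe sets called higher, and no member was called lower against 4.95%. The median over the members was 0.51, beside 0.003 over all probe sets. This comparison shares its WT 6 months arrays with the one above, so the 2 sets of values are not independent.

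Calls were few in the 2 comparisons without the arrays labelled WT 6 months, among members and among all probe sets. By rank some members lay far out. In KO 24 months tumor over KO 6 months 0.399% of all probe sets had a lower difference than Tat, and 96.1% a lower one than Kmo. In KO 24 months tumor over WT 24 months these shares were 3.93% for Tat and 99.1% for the called Tdo2 probe set. For Hpd they were 44.9% and 69.3% in the same order of comparisons. In KO 24 months tumor over KO 6 months no member was called, where 0.02% of all probe sets were called in either direction (0.0177% higher and 0.00222% lower), and 2 of the 16 (Tat and Kmo) had an unadjusted limma p below 0.05 beside 6.11% of all probe sets. The median difference was 0.008 over the members and 0.004 over all probe sets. In KO 24 months tumor over WT 24 months the single call was the Tdo2 probe set above, 4 of the 16 members had an unadjusted limma p below 0.05 beside 15.3% of all probe sets, and the median difference was 0.20, beside 0.05 over all probe sets.

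**Figure D4:**
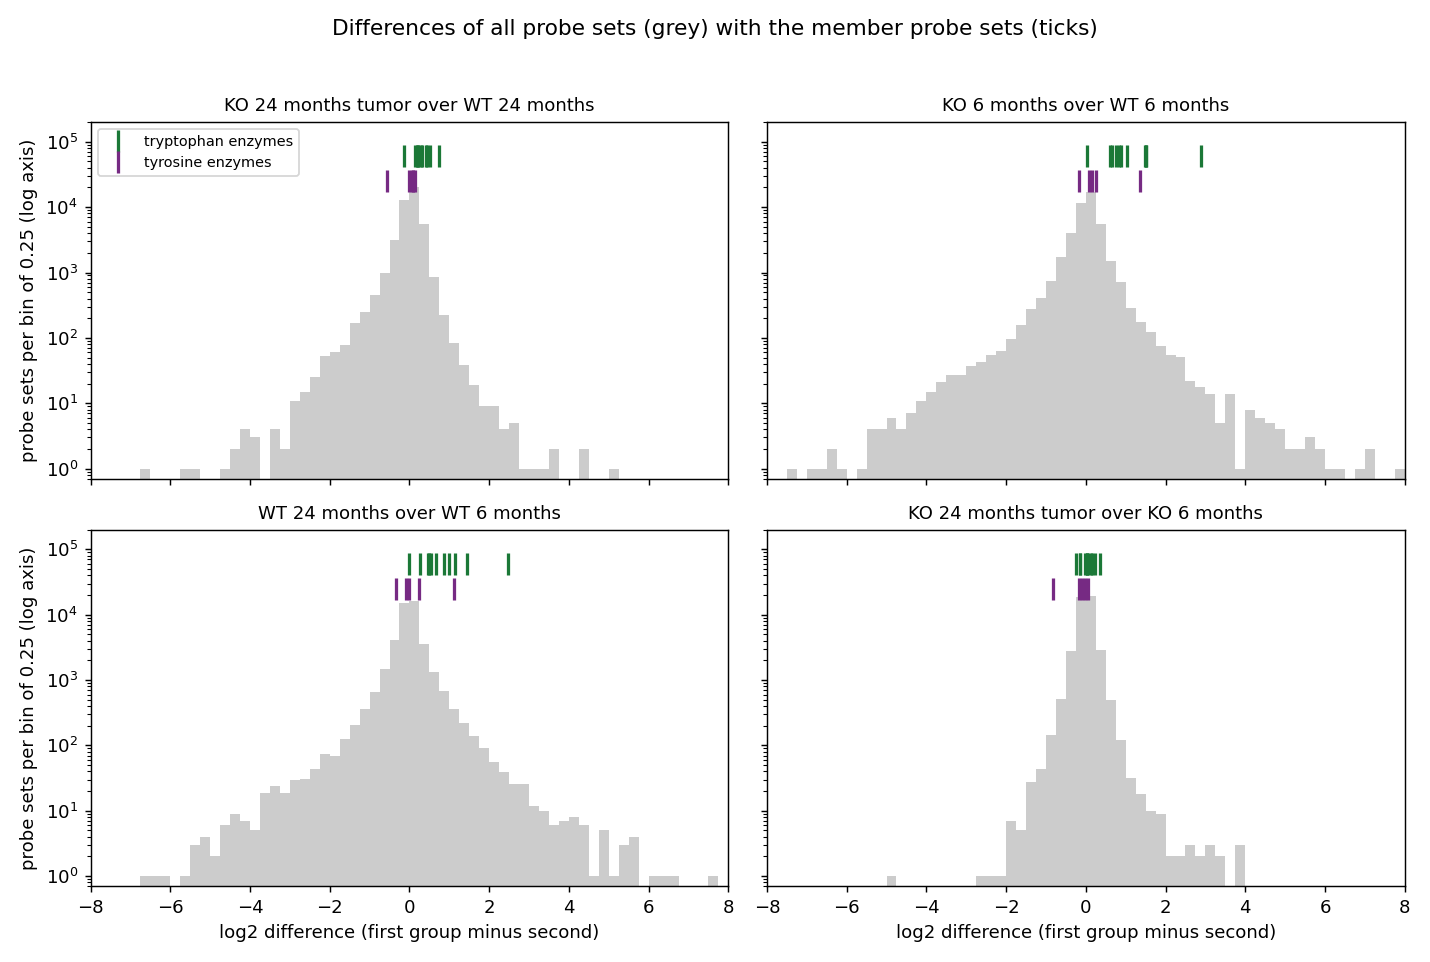
Number of probe sets per 0.25-wide bin of log2 difference (grey bars, log vertical axis) in each comparison, with ticks at the member probe sets of the tryptophan (green) and tyrosine (purple) enzymes. Most green ticks lie right of the centre in the 2 comparisons over WT 6 months, Kynu farthest at 2.90 and 2.47.

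The difference between ages was also compared between the genotypes, as KO 24 months tumor minus KO 6 months less the same for WT. Of the 16 probe sets 5 were called, all with a lower value in the KO labels, against 1.42% of all probe sets called lower and 1.72% called higher. For 2 of the 5, Kynu and Tat, the value was past 3-fold, as it was in 0.632% of all probe sets. They were Kynu (-2.60, SE 0.34, limma adjusted p = 0.00154), Tat (-1.93, SE 0.37, limma adjusted p = 0.0152), Kmo (-1.10, SE 0.19, limma adjusted p = 0.00755) and 2 Tdo2 probe sets (-0.99 and -0.75, limma adjusted p = 0.0310 and 0.0444). On the brightest Tdo2 probe set the value was -0.82 and was not called. The 2 Tdo2 calls were near the threshold. The first was lost when any 1 array other than WT 24 months replicate 3 and those labelled WT 6 months was left out (adjusted p from 0.0514 to 0.0880). The second was lost without any 1 array other than the 3 numbered replicate 3 in KO 24 months tumor, WT 24 months and WT 6 months (adjusted p from 0.0657 to 0.116). This contrast keeps its value if the 2 labels that Iqgap2 goes against are exchanged. For Kynu the age difference was -0.13 in the KO labels and 2.47 in the WT labels, for Tat -0.81 and 1.12. These single age differences would not keep their values under that exchange. The KO one would be KO 6 months over WT 6 months with its sign turned (before turning, Kynu 2.90 and Tat 1.36). The WT one would be KO 24 months tumor over WT 24 months with its sign turned (before turning, Kynu 0.29 and Tat -0.56).

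Around the 9 enzymes, 13 further genes of the same routes were listed and 11 had a probe set of their own. In KO 6 months over WT 6 months 6.1% of all probe sets were called higher and 6.02% lower. Of the 11 genes 5 were called higher and none lower, or 8 of their 19 probe sets. They were Got1, the cytosolic aspartate aminotransferase (4.76, SE 0.50, limma adjusted p = 0.000122), Ido2, an indoleamine dioxygenase (2.01, SE 0.27, limma adjusted p = 0.000637), and Kyat1, a kynurenine aminotransferase (1.48, SE 0.17, limma adjusted p = 0.000267). Smaller differences were called in Aadat, which also transaminates kynurenine (0.76, limma adjusted p = 0.0120), and Qdpr, which recycles the cofactor of phenylalanine hydroxylation (0.65, limma adjusted p = 0.0110). Aadat was lost without KO 6 months replicate 3 (0.71, adjusted p = 0.0509) or WT 6 months replicate 2 (0.66, adjusted p = 0.0528). Centred on housekeeping genes, neither Aadat nor Qdpr was called (adjusted p = 0.0795 and 0.141).

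Got1 read 12.56, 12.15 and 12.27 in KO 24 months tumor, 13.03, 13.36 and 13.26 in KO 6 months, 12.10, 13.42 and 12.54 in WT 24 months, and 8.81, 9.51 and 7.04 in WT 6 months, a wide gap with no overlap. In WT 24 months over WT 6 months 3 of the 11 were called higher, Got1 (4.23), Ido2 (1.68) and Kyat1 (0.99), and none lower. Over all probe sets 3.79% were called higher and 4.95% lower. The adjusted p of Kyat1 was 0.0650 with only the 2 groups fitted. No gene of this list was called in the other 2 comparisons. Few probe sets of any kind were called there, 0.237% in KO 24 months tumor over WT 24 months and 0.02% over KO 6 months.

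**Figure D5:**
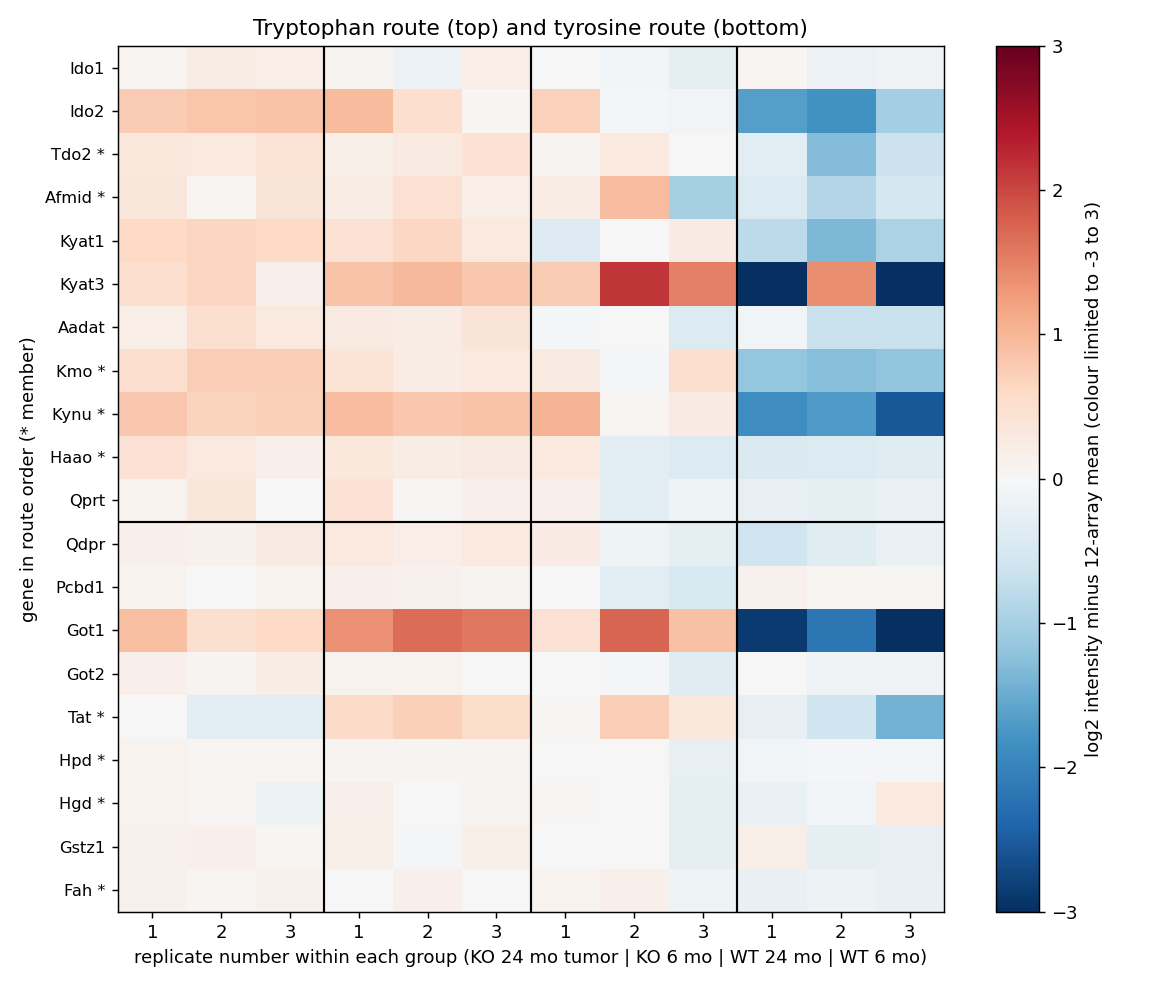
Log2 intensity minus the 12-array mean of the brightest probe set (colour, limited to -3 and 3) for members (asterisk) and other route genes in route order (rows) in the 12 arrays by label (columns). The arrays labelled WT 6 months are pale to dark blue in most tryptophan rows and in Got1 and Tat, while Hpd, Hgd, Got2 and Gstz1 stay near white.

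Some other markers moved with the same arrays. Beside the counts below, 6.1% of all probe sets were called higher and 6.02% lower in KO 6 months over WT 6 months. In WT 24 months over WT 6 months these shares were 3.79% and 4.95%. Unlike the summed intensity of the general hepatocyte markers, that of the liver zone markers differed. Summed linear intensity of periportal hepatocyte markers (3 genes, all called) read 31442 to 34061 in KO 24 months tumor, 31376 to 33119 in KO 6 months, 27896 to 30050 in WT 24 months and 1252 to 1796 in WT 6 months. Pericentral markers (5 genes, 4 called in the opposite direction) read 42426 to 45649, 42731 to 45862, 38332 to 44712 and 71211 to 80711 in the same order. Their part in the differences of the enzymes was not tested.

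Sinusoidal endothelial markers (5 of 6 genes called higher in each comparison over WT 6 months) summed to 3064 to 3496 in KO 24 months tumor, 3302 to 3801 in KO 6 months, 2462 to 4772 in WT 24 months and 922 to 1514 in WT 6 months. Stellate cell and fibroblast markers (3 of 6 genes called higher in each) summed to 3658 to 3945, 5149 to 5273, 3750 to 5643 and 726 to 1742 in that order. Kupffer cell markers were called in 0 of 6 genes in KO 6 months over WT 6 months and in 1, higher, in WT 24 months over WT 6 months. They summed to 1912 to 2509, 2853 to 3232, 3437 to 34131 and 2718 to 4434 in that order. The highest was WT 24 months replicate 3, the array that was lowest for Afmid. Whether this bears on the enzymes was not tested. Biliary markers were called higher in 1 of 4 genes and lymphocyte markers in 1 of 5, both in KO 6 months over WT 6 months. Signal at the 3′ minus the 5′ end of actin, a sign of RNA quality, ranged from 1.18 to 1.54 in KO 24 months tumor, 1.05 to 1.22 in KO 6 months, 1.29 to 1.51 in WT 24 months and 1.00 to 1.64 in WT 6 months. For actin the range of WT 6 months spanned those of the other groups, and KO 6 months lay below WT 24 months without overlap. The same measure for Gapdh ranged from 0.20 to 0.40, 0.14 to 0.23, 0.18 to 0.24 and 0.04 to 0.27 in that order. There the WT 6 months range did not span that of KO 24 months tumor.

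For each member the gene nearest in pattern was sought among 18193 others, by the mean absolute difference of centred values over the 12 arrays. Slc38a4 was nearest to Tdo2 (0.125), Mfsd4b1 to Kmo (0.152), Dclk3 to Kynu (0.158), Hibadh to Haao (0.0903) and Bmp5 to Tat (0.196). These distances compare with a mean absolute deviation of 0.378, 0.608, 1.02, 0.327 and 0.485 of the members themselves. Tk1, which overlaps Afmid on the chromosome, was nearest to it (0.172, against a deviation of 0.467), and Tk1 read 8.75, 9.61 and 8.17 in the arrays labelled WT 24 months. The nearest to Hpd, Hgd and Fah were Syt6 (0.0404), Iqgap3 (0.0525) and Gm12992 (0.0487), where the deviations were 0.0748, 0.120 and 0.122.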

How the data were processed

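RNA from 12 mouse livers or hepatic tumors was hybridized to 12 Affymetrix Mouse Genome arrays. The deposited values are log2 intensities that the authors made by RMA in the Simpleaffy package (version not given in the sources used here), a procedure of background correction, quantile normalization and probe summary. Quantile scaling removes any overall shift in RNA between arrays, so differences are relative to the other probe sets. Array medians ran from 5.41 to 5.45, and no pair of arrays was identical. Depth has no counterpart on arrays, and precision is limited by 3 arrays per group.

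Probe sets were named by the supplied platform annotation: 34958 name 1 gene, 932 several and 9211 none. Groups were taken from the labels. A linear model of the 4 group means was fitted to all 45101 probe sets with limma 3.58.1 in R 4.3.3, with Benjamini-Hochberg adjustment over all of them, and calls were made at an adjusted p of 0.05 or less without a fold. An exact permutation of 3 arrays against 3 cannot go below p = 0.1. The SAM test of the study's methods was not run. Replicate numbers did not pair the arrays, and no batch is given in the sources used here. All probe sets of the 9 members are reported, a gene with several being read on its brightest. Other route genes are named where called, and Iqgap2 and Afp for the labels. The members, lists, motifs and tests were chosen with earlier results of these data known.

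Alternatives were a fit of only the 2 groups, the replicate number as a block, 1 or the mean probe set per gene, dim probe sets left out, a fold of 3 or 2, a trended robust prior, centring on the array median or on 4 of 5 housekeeping genes, and each array left out. Those for other route genes and single interactions were added after seeing the data. The fit was also run on simulated data with independent noise, which leaves out deviations that the probe sets of an array share. Promoter windows are RefSeq sequence of build GRCm38.p6. Figures were drawn with matplotlib 3.10.9.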

Additional observations from a re-analysis of the deposited data

Results flagged for a closer look

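The difference between ages itself differed between the genotype labels in 5 of 16 member probe sets, by the limma interaction over all 12 arrays. All 5 were lower, where 1.42% of all probe sets were called lower and 1.72% higher. The contrast includes the arrays labelled WT 6 months, so it is not independent of the comparisons over them. The values, as the age difference in KO labels minus that in WT labels, were -2.60 for Kynu (SE 0.34, adjusted p = 0.00154), -1.93 for Tat (SE 0.37, adjusted p = 0.0152) and -1.10 for Kmo (SE 0.19, adjusted p = 0.00755). For Tdo2 they were -0.99 (SE 0.22, adjusted p = 0.0310) and -0.75 (SE 0.18, adjusted p = 0.0444) on its 2 dimmer probe sets. On its brightest probe set, the one the gene is read on, the value of -0.82 was not called. Kynu, Kmo and Tat kept their calls in all 19 alternatives each. The 2 dimmer Tdo2 probe sets were called in 8 and 6 of 17 alternatives, and the brightest in 2 of 19. The same values would stand if the 2 labels that Iqgap2 goes against were exchanged.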

How the results depend on the processing

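Over 124 single differences and their alternatives, none that was called changed sign, 48 alternative values lost a call and 29 gained one. For KO 24 months tumor over WT 24 months, the 1 member probe set called higher became 0 with only the 2 groups fitted, the replicate block, 1 or the mean probe set per gene, a fold of 3 or 2, and centring on the array median or on housekeeping genes, and ran from 0 to 2 with 1 array left out (2 without WT 24 months replicate 1). For KO 6 months over WT 6 months, 8 higher became 5 of 9 genes with 1 or the mean probe set per gene, 1 at a fold of 3, and 7 to 11 with 1 array left out. For WT 24 months over WT 6 months, 6 higher became 1 at a fold of 3 and 4 to 9 with 1 array left out (4 without WT 24 months replicate 2, 9 without replicate 3). For KO 24 months tumor over KO 6 months, 0 lower became 1 with only the 2 groups fitted (Tat, -0.81, adjusted p = 0.0399). The 5 interactions became 3 with 1 probe set per gene, 2 at a fold of 3, 3 at a fold of 2, 3 with housekeeping centring, and 3 to 8 with 1 array left out (8 without WT 24 months replicate 3). The cause of these changes was not tested.

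Same-numbered arrays did not deviate together (correlations from -0.24 to 0.19 over 12 pairs, and 0 to 2 of 6 arrays per comparison closest to their own number). With the replicate block the members called higher were 0, 8, 6 and 0 in the 4 comparisons as listed, and Tdo2 in KO 24 months tumor over WT 24 months had an adjusted p of 0.0829. Calls over all probe sets under the block were 68 instead of 107, 4900 instead of 5465, 3621 instead of 3945 and 3 instead of 9. Over all probe sets, KO 24 months tumor over WT 24 months gave 107 calls, against 22 with only the 2 groups, 246 with housekeeping centring, and 9 to 1166 with 1 array left out (the lowest without KO 24 months tumor replicate 2 and the highest when WT 24 months replicate 1 was absent). KO 24 months tumor over KO 6 months gave 9, against 124 with only the 2 groups and 24 with housekeeping centring, and WT 24 months over WT 6 months gave 3945, against 1497 with only the 2 groups. KO 6 months over WT 6 months gave 5465, against 3360 without KO 6 months replicate 3, and the interaction 1417, against 887 without KO 24 months tumor replicate 2. Housekeeping centring shifted all differences by -0.10 in KO 6 months over WT 6 months and by -0.15 in WT 24 months over WT 6 months, and the share of calls that were higher was 29.8% instead of 50.3%, and 26.8% instead of 43.4%. In KO 24 months tumor over WT 24 months that share was 27.2% instead of 51.4%. Under that centring Haao was no longer called in KO 6 months over WT 6 months (adjusted p = 0.158), while Kynu, Kmo, Tat and Tdo2 stayed called. The genes used for that centring were not level themselves. On their brightest probe sets the 3 arrays labelled WT 6 months read below the 9 others for Gusb and Gapdh and above them for Hprt. Calls lost or gained under that centring are limited by this. The dim probe sets of Afmid and Kynu had 12-array means of 3.81 and 4.55, at percentiles 14.6 and 34.0 of all probe sets. Both lay below the array medians, which limits what they can show.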

Other observations

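Kyat3, a kynurenine aminotransferase named here after its values were seen, read 11.15, 11.29 and 10.78 in the arrays labelled KO 24 months tumor, 11.49, 11.62 and 11.45 in KO 6 months, 11.41, 12.78 and 12.14 in WT 24 months, and 6.21, 12.04 and 5.35 in WT 6 months. Of the arrays labelled WT 6 months, replicate 2 lay among the other groups and the remaining 2 far below. Its differences over WT 6 months, 3.65 for KO 6 months and 4.25 for WT 24 months, were not called by limma (adjusted p = 0.0870 and 0.0625). Without WT 6 months replicate 2 they were 5.74 and 6.34 (adjusted p = 5.55e-06 and 3.10e-06). The difference for WT 24 months was also called with the replicate block (adjusted p = 0.0487), 1 probe set per gene (0.0493), dim probe sets left out (0.0423) and housekeeping centring (4.10, adjusted p = 0.0187), and that for KO 6 months with housekeeping centring (3.55, adjusted p = 0.0401). These alternatives were added after seeing the data.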
